A study of Mus musculus with 10 samples.

Results

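The peaks described here are sites of the transcription factor p63 at 10 genes of receptor tyrosine kinase signalling in mouse keratinocytes: Fgfr1, Fgfr2, Fgfr3, Fgfr4, Met, Mst1r, Igf1r, Spry1, Spry2 and Spry4. A peak belonged to a gene if its midpoint lay inside the gene or within 100 kb of either end. By that rule 25 of the 8451 p63 peaks were counted, at 8 of the 10 genes, and no peak was counted for more than 1 gene. The series holds 10 ChIP-seq libraries from the keratinocyte lines MK1 and MK2, with 1 library per line of each kind: p63, input chromatin and 3 histone modifications (H3K4me1, H3K4me3, H3K27ac). The labels give no treatment, genotype or age for either line. Only the p63 peaks were used; they come as 1 list that the submitters made from the MK1 and MK2 p63 libraries together, with chromosome, start and end of each peak and no height. Read depth is therefore unknown, MK1 cannot be set against MK2, and no value below has a spread between replicates or a test. The keratins of basal keratinocytes, looked at as a check on the labelled cell type, had peaks inside or within 25 kb: 4 at Krt5 and 1 at Krt14. Binding that close was found for 29.7% of protein-coding genes, so these counts do not establish the cell type. These data hold no expression values, and distance alone does not tell which gene, if any, a bound site acts on.

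Receptor tyrosine kinases carry growth signals from outside the cell to the RAS and MAP kinase cascade. In skin, fibroblasts secrete FGF7, FGF10 and HGF, and keratinocytes read them through an epithelial splice form of FGFR2 and through MET. Sprouty proteins are made in response to these signals and damp them, as feedback inhibitors of the same cascade. p63 is the p53-family factor that maintains basal keratinocytes. It binds DNA through pairs of short cores such as CATG.

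p63 peaks were unevenly spread over the 10 genes. Fgfr2 and Met had 6 peaks each, Igf1r had 4 and Spry1 had 3. Fgfr1 and Mst1r had 2 each, Fgfr3 and Spry2 had 1 each, and Fgfr4 and Spry4 had none. The count of 8 genes in 10 with a peak inside or within 100 kb stands against 55.2% of all 21779 protein-coding genes. Closer in, 7 of the 10 genes had a peak inside or within 25 kb, against 29.7% of protein-coding genes. A peak lay inside 4 of the 10 genes (Fgfr2, Met, Mst1r and Igf1r), against 13.4%. Long genes offer more room for a peak, and 3 of these 4 are over 100 kb long. Among genes of 0.5 to 2 times the length, the share with an internal peak was 30.1% for Fgfr2 and 30.5% for Met. It was 39.6% for Igf1r and 8.88% for Mst1r. A total of 6 or more peaks, as at Fgfr2 and Met, was reached by 827 protein-coding genes, or 3.80%. Among genes of 0.5 to 2 times the length of Fgfr2 that share was 5.13%, and for Met it was 5.10%. The median protein-coding gene had 1 peak and the median of the 10 genes was 2. The 10 genes were chosen with earlier results of these data known, so these comparisons are descriptive only.

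**Figure D1:**
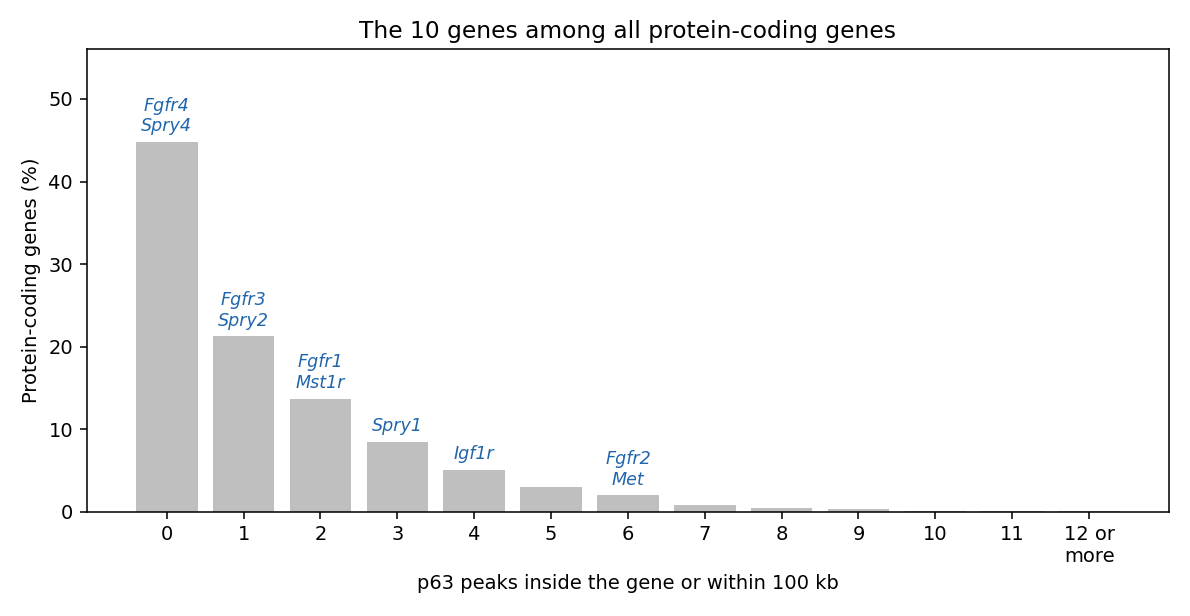
Share of all 21779 protein-coding genes (vertical axis, percent) by the number of p63 peaks inside the gene or within 100 kb (horizontal axis; the last bar holds 12 or more), with the 10 genes named above the bar of their own count. Fgfr2 and Met stand at 6 peaks with 1.99% of genes at exactly that number, while Fgfr4 and Spry4 stand among the 44.8% with none.

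Taken by position, 11 of the 25 peaks lay inside the gene, 7 upstream, 5 downstream and 2 above the upper end of Fgfr1. Strand and start sites came from RefSeq promoter windows, which matched 8 of the 10 genes; Fgfr1 and Spry4 were not matched, so their peaks are placed by lower and upper end. Of the 23 peaks at genes with a listed start, 3 had their midpoint within 5 kb of one and 1 within 1 kb. The last of these lay at Met. For 18 of the 25 peaks the gene in question was also the nearest protein-coding gene, counting a gene as nearest when the peak lay inside it. Over all 29549 pairs of a protein-coding gene and a peak within 100 kb, the gene was the nearest in 26.0%. Those pairs were not matched to the 10 genes in gene length or in number of neighbouring genes. The 7 other peaks were nearer to Nsd3 (2), Ate1 (2), Inka1, Spata5 and Gm5148.

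**Figure D2:**
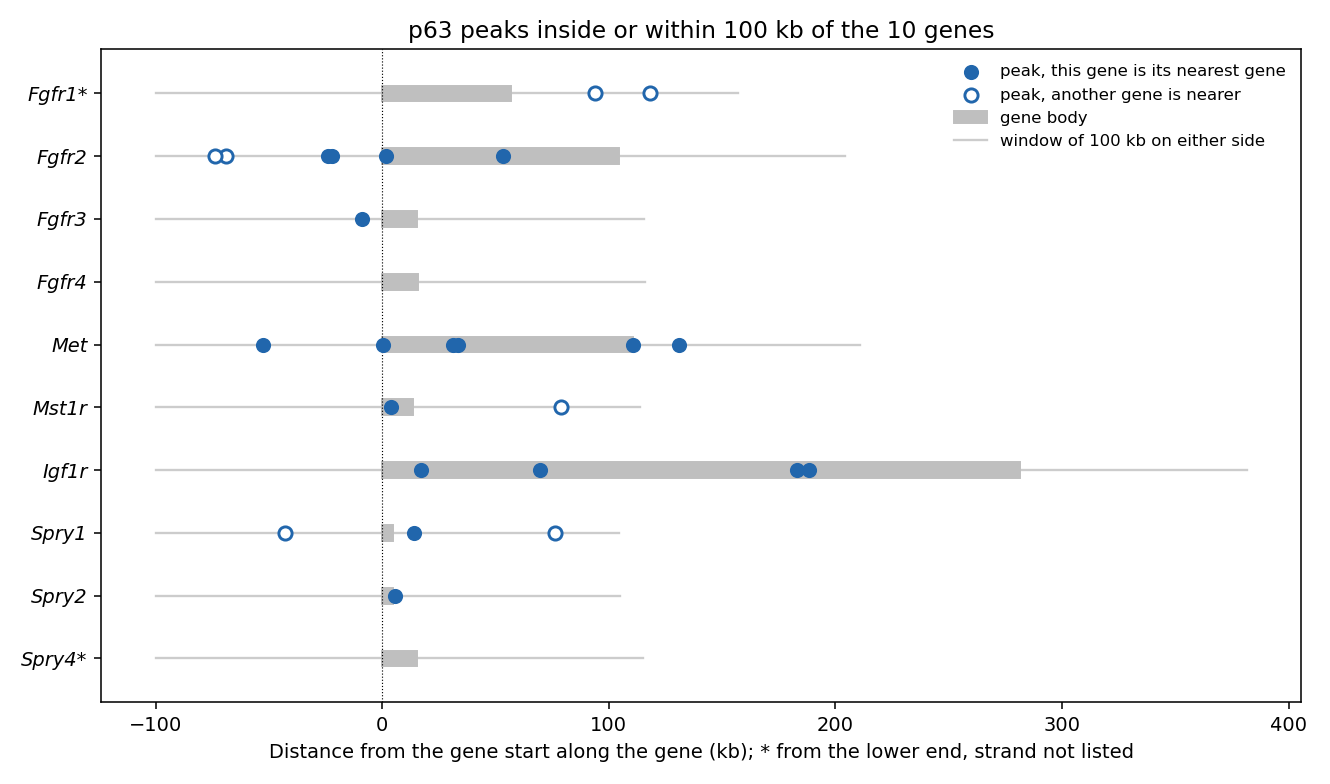
Position of every p63 peak (circles) inside or within 100 kb of the 10 genes, in kb from the gene start along the direction of transcription; Fgfr1 and Spry4 are drawn from their lower end. Filled circles are peaks with that gene as the nearest protein-coding gene and open circles are peaks nearer to another gene; grey boxes are gene bodies. All 4 Igf1r peaks lie inside the gene, 4 of the 6 Fgfr2 peaks lie upstream, and the Fgfr4 and Spry4 lines are empty.

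Met held the single promoter window of the 8 matched genes that overlapped a peak. Each window runs from 250 bases before a listed start to 50 bases after it, and 1.27% of 17492 protein-coding genes with a window had one that overlapped a peak. The Met window is shown beside that of Fgfr4. The first lay under a peak and lacked the pair of cores searched for. The second held such a pair and had no peak within 100 kb. The motif marked in Fgfr4 was a pair of cores, each of them CATG or CTAG or CTTG or its complement CAAG, with 6 bases between them. It reads the same way on both strands. Other p53-family motifs searched are given below. Both sequences are the plus strand of GRCm38.p6 from RefSeq, 5′ to 3′, at chr6:17463707-17464006 for Met and chr13:55152568-55152867 for Fgfr4. Capitals mark the AP-1 motif TGAGTCA in Met and the pair of cores with the bases between them in Fgfr4.
Met: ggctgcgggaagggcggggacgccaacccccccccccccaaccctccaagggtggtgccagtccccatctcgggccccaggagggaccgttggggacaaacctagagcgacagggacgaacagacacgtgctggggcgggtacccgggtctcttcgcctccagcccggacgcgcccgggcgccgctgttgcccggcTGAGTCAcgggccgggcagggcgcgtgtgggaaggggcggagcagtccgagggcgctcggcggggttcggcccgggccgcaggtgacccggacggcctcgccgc
Fgfr4: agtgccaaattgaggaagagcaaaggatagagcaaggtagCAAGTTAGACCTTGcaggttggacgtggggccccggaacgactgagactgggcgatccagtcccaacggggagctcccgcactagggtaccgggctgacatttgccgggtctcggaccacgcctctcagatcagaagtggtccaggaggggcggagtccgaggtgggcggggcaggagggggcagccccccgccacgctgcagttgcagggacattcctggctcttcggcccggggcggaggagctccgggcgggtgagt

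The Met peak at chr6:17463655-17463968 covered 262 of the 300 bases of this window, including the listed start at 17463957. The capital TGAGTCA lay at 17463903 to 17463909, with its last base 48 bases before the start. AP-1 is the factor family of FOS and JUN proteins, and its motif was looked for after the Met window had been read. It was present, on either strand, in 4.66% of 21263 windows of protein-coding genes and in 8.26% of the 242 windows that overlapped a peak. The pair of cores was present in 6.49% of all windows and in 19.4% of those that overlapped a peak. A pair with both cores CATG was present in 0.701% and 2.48%, respectively. The p53-family motif RRRCWWGYYY (R purine, W A or T, Y pyrimidine) was present in 7.37% and 17.4%. Of the 10 windows of the 8 matched genes, the Fgfr4 window alone held a pair of cores and the Met window alone held the AP-1 motif. Neither the CATG pair nor RRRCWWGYYY was found in any of the 10 windows, that of Fgfr4 included. A match of letters is no evidence that a factor sits there. The Met window is rich in G and C (75.7%), against a median of 56.3% over all windows of protein-coding genes, and the Fgfr2 window is low (43.7%).

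Fgfr2 encodes the receptor through which keratinocytes read FGF7 and FGF10. The gene lies at chr7:130162451-130266808 on the minus strand, so its start is the upper end. Inside the gene, a 402 bp peak at chr7:130264969-130265370 lay 1.64 kb past the start. The other internal peak, 462 bp wide at chr7:130213205-130213666, lay 53.4 kb past the start, or 51.1% of the way through the gene. Both internal peaks were wider than the median of the list, which was 305 bp.

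Upstream of Fgfr2 the peaks came in close pairs. A 631 bp peak at chr7:130288686-130289316, 22.2 kb before the start, was followed by a 246 bp peak at chr7:130290788-130291033, 24.1 kb before it. Their midpoints were 1.91 kb apart and their edges 1471 bp apart. The second pair lay farther out, with a 199 bp peak at chr7:130335598-130335796 and a 982 bp peak at chr7:130340109-130341090, at 68.9 and 73.8 kb before the start and 4.90 kb apart. Each pair thus joined a wide peak to a narrow one. The 982 bp peak was the widest of the 25, and 31 of all 8451 peaks (0.367%) were at least that wide. Ate1, which encodes an arginyltransferase, was the nearest protein-coding gene of the second pair, at 55.8 and 50.9 kb. No protein-coding gene, Ate1 included, lay within 100 kb of either end of Fgfr2. When non-coding genes were counted as well, all 4 upstream peaks had a long non-coding RNA gene as their nearest, among them Gm33555 for the first pair.

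Peaks with Fgfr2 as nearest gene went on beyond 100 kb, on the side of the gene's 3′ end. A 294 bp peak at chr7:130032047-130032340 lay 130.3 kb past that end, and a 243 bp peak at chr7:129974918-129975160 lay 187.4 kb past it. They were 57.2 kb apart and both were narrower than the median. In all, 6 peaks had Fgfr2 as their nearest gene at any distance, a number that 142 protein-coding genes (0.652%) reached. Met, also with 6, was among them. Fgfr2 stands between distant neighbours: the nearest protein-coding gene is Wdr11, 526.7 kb away on the 3′ side, and Ate1 on the other side is 124.7 kb away. The 755.8 kb between Wdr11 and Ate1 held 12 peaks, namely 6 on the 3′ side, 2 inside Fgfr2 and 4 upstream. That is 15.9 peaks per Mb, against 3.18 per Mb over the annotated span of all chromosomes. At the other genes described, the stretch between neighbours held from none (Fgfr1 and Fgfr4) to 39.5 per Mb (Mst1r, with 1 peak). Every one of these stretches that held a peak was above 3.18 per Mb, the lowest being 5.02 at Spry2. Passing that average therefore does not set Fgfr2 apart from them. Of the 6 peaks on the 3′ side of Fgfr2, the 4 farthest were nearer to Wdr11.

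**Figure D3:**
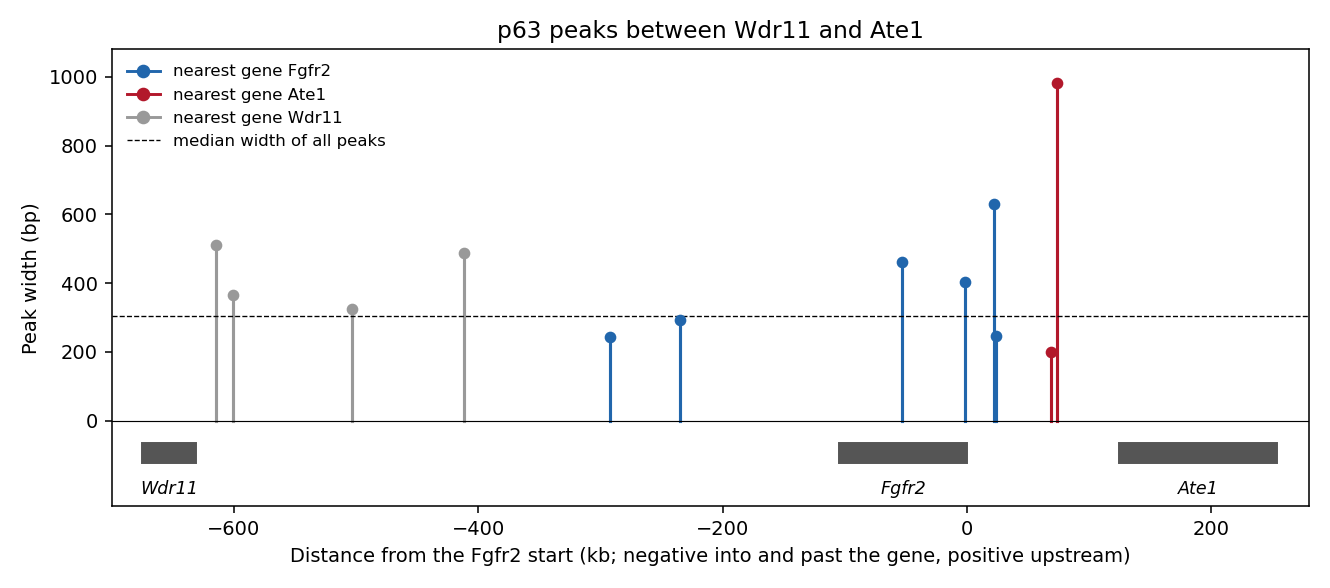
The p63 peaks from Wdr11 to Ate1 around Fgfr2, drawn at their distance from the Fgfr2 start (horizontal axis, kb; negative values run through the gene and past its 3′ end) with a stem as high as the peak is wide (vertical axis, bp). Blue stems have Fgfr2 as nearest protein-coding gene, red stems Ate1 and grey stems Wdr11; dark boxes are genes and the dashed line is the median width of all peaks, 305 bp. The tallest stem, 982 bp, stands 73.8 kb upstream of the start, and 2 low blue stems of 294 and 243 bp stand past the 3′ end.

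The other FGF receptor genes had few peaks. Fgfr3, whose product restrains growth in bone and is also made in epidermis, lies at chr5:33721724-33737068. It had 1 peak of 280 bp at chr5:33712687-33712966, 8.90 kb upstream of the start. Fgfr3 was the nearest gene of that peak, and the next peak was 245.0 kb from it. One peak was the median for protein-coding genes.

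Fgfr1 encodes the receptor that binds FGF2 and many other FGF ligands and lies at chr8:25518759-25575718. Its 2 peaks lay at chr8:25612487-25612783 (297 bp) and chr8:25636538-25637001 (464 bp), 36.9 and 61.1 kb above the gene's upper end. Both were inside Nsd3, which encodes a histone methyltransferase, and were 24.1 kb apart. No peak lay in the 151.1 kb between the genes on either side of Fgfr1, Gm39147 and Letm2, and no peak in the list had Fgfr1 as its nearest gene.

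Fgfr4, which in liver acts with beta-Klotho as the receptor of FGF15, lies at chr13:55152818-55168759. It had no peak within 100 kb. The nearest on record was a 218 bp peak inside Rab24 at chr13:55319381-55319598, 150.7 kb downstream. Among genes of like length, 59.1% had a peak within 100 kb. Since depth is unknown, sites too weak to be listed cannot be told from sites that are not bound.

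Met encodes the receptor of HGF, which drives spreading and migration of epithelial cells. The gene lies at chr6:17463349-17573980 on the plus strand and held 4 peaks, a number inside the gene that 2.58% of genes of like length reached. These lay at both ends of the gene and, as a pair, 31.3 and 33.5 kb into it. The 314 bp peak over the listed start is described above. A pair followed, with a 377 bp peak at chr6:17494488-17494864 and a 402 bp peak at chr6:17496614-17497015, 2.14 kb apart. The last internal peak, 292 bp wide at chr6:17573630-17573921, lay 0.205 kb before the gene's upper end.

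Outside Met, a 231 bp peak at chr6:17410409-17410639 lay 52.8 kb upstream and a 325 bp peak at chr6:17594075-17594399 lay 20.3 kb downstream. Met was the nearest protein-coding gene of all 6 peaks. The Met peaks were alike in width, from 231 to 402 bp, whereas the 6 peaks within 100 kb of Fgfr2 ran from 199 to 982 bp. Between the neighbouring genes Cav1 and Capza2, which are 295.7 kb apart, there was no peak besides these 6, or 20.3 per Mb.

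Mst1r encodes RON, the receptor of macrophage-stimulating protein and the closest relative of MET. The gene, at chr9:107906858-107920383, is 13.5 kb long and had 1 internal peak of 615 bp at chr9:107910280-107910894, 3.73 kb past its lower end. Its second peak was 831 bp wide, at chr9:107985146-107985976, 65.2 kb downstream and inside Inka1. Both ranked among the widest 5% of the list, with 4.24% and 0.781% of all peaks at least as wide. A total of 9 other protein-coding genes lay within 100 kb of Mst1r, the most at any of the 10 genes.

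The ligand gene of this receptor, Mst1, lies beyond the 100 kb window. A 410 bp peak at chr9:108080836-108081245 lay inside Mst1, the only peak with Mst1 as nearest gene. A 349 bp peak at chr9:108080168-108080516 overlapped the Mst1 promoter window, but its midpoint lay inside Rnf123, which counts as its nearest gene. The midpoints of these peaks were 0.699 kb apart. They were 160.7 and 160.0 kb from Mst1r.

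Igf1r encodes the receptor of insulin-like growth factors, which sustain growth and survival of keratinocytes. It is the longest of the 10 genes, with 281.4 kb at chr7:67952257-68233668, and all of its 4 peaks were internal. A 431 bp peak at chr7:67969138-67969568 lay 17.1 kb past the start and a 617 bp peak at chr7:68021502-68022118 lay 69.6 kb past it. After a stretch of 113.4 kb came a pair, 312 bp at chr7:68135058-68135369 and 370 bp at chr7:68140440-68140809, at 65.0% and 66.9% of the gene's length and 5.41 kb apart. Among genes of like length 39.6% had an internal peak and 6.57% had 4 or more. Counted from the start site instead of the gene body, 2 of the 4 peaks fell within 100 kb.

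The Sprouty genes, whose products inhibit signalling below these receptors, are short and had 4 peaks in all, none of them internal. Among genes of like length, 3.72% (for Spry1), 3.91% (for Spry2) and 9.88% (for Spry4) had an internal peak. Spry1, at chr3:37639947-37644599, had 3 peaks of 237, 252 and 291 bp, all under the median width. The nearest, at chr3:37653859-37654110, lay 9.39 kb downstream and was the only one of the 3 with Spry1 as nearest protein-coding gene. One at chr3:37596655-37596891 lay 43.2 kb upstream, on the side of Spata5, and one at chr3:37715797-37716087 lay 71.3 kb downstream inside Gm5148. Consecutive peaks were 57.2 and 62.0 kb apart.

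On the far side of Spata5 from Spry1 lies Fgf2, which encodes an FGF ligand. The 3 peaks inside Spata5 between 135.9 and 166.6 kb upstream of Spry1 began 63.2 kb downstream of Fgf2, and Fgf2 had 3 peaks within 100 kb in all. Fgf2 was singled out after its values were seen.

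Spry2, at chr14:105891947-105896819 on the minus strand, had 1 peak of 478 bp at chr14:105891022-105891499. It lay 0.687 kb beyond the 3′ end of the gene, and its next peak was 265.5 kb away. It was wider than the Spry1 peaks, with 12.7% of all peaks at least as wide. Spry2 stands alone, with its neighbours Ndfip2 and Trim52 at 582.6 and 209.4 kb. The 796.9 kb between them held 4 peaks, or 5.02 per Mb, and the other 3 were nearer to Ndfip2.

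Spry4, at chr18:38586247-38601347, had no peak within 100 kb. The peak nearest to it was just outside that limit, 102.5 kb below its lower end at chr18:38483554-38483900 (347 bp). The farthest peak inside the limit at any of the 10 genes was the 982 bp peak at 73.8 kb from Fgfr2.

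Taken as a set, the 25 peaks ranged from 199 to 982 bp with a median of 370 bp, against 305 bp for the list. Of the 25, 16 were at least as wide as the list's median, and 11 were above its upper quartile of 392 bp. The peaks in the widest 5% of the list were 5: both Mst1r peaks, the 631 and 982 bp peaks at Fgfr2 and the 617 bp peak at Igf1r. A wide peak can hold several sites or more reads, and which applied was not tested. Of the 25 peaks, 8 (32.0%) had another peak within 10 kb, against 29.1% of all peaks. These 8 were the pairs at Fgfr2 (2 pairs), Met and Igf1r. Joined at gaps of up to 10 kb between midpoints, the 25 peaks made 21 groups. The median distance to the next peak was 24.1 kb, against 28.4 kb over the list.

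**Figure D4:**
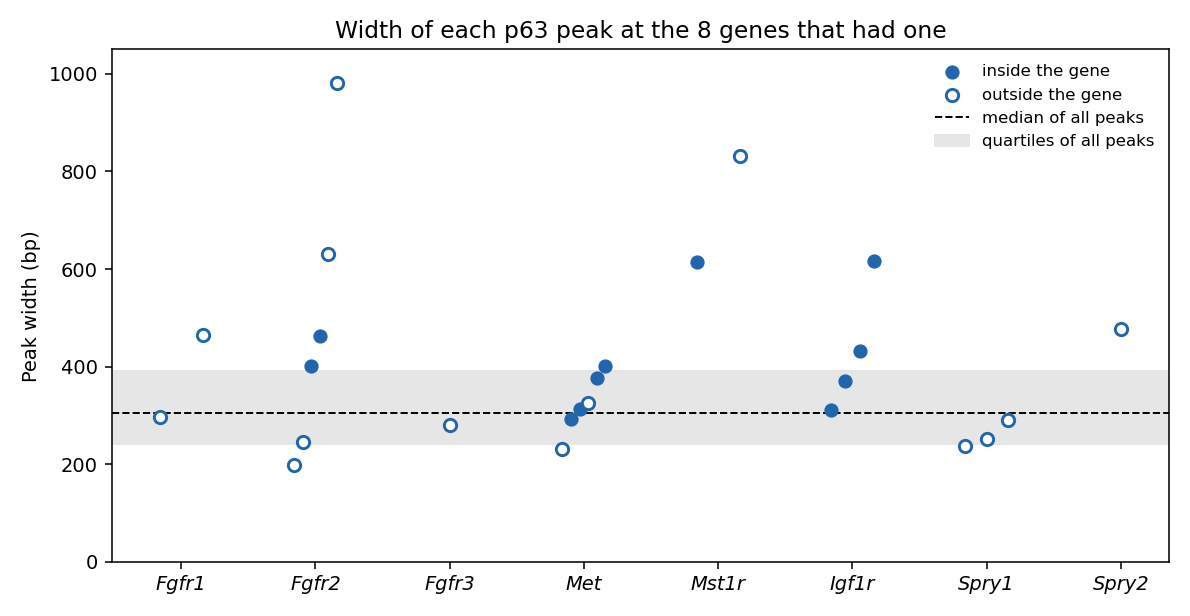
Width in bp (vertical axis) of each of the 25 p63 peaks at the 8 genes that had one; filled circles lie inside the gene and open circles outside it. The dashed line is the median of all 8451 peaks, 305 bp, and the grey band spans their quartiles, 242 to 392 bp. Both Mst1r peaks lie above the band at 615 and 831 bp, and the Spry1 peaks lie below the median at 237 to 291 bp.

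Other genes of the same receptor pathways were read from a list of 75 by role, of which 74 were matched; Spry3 was not. Of these, 44 (59.5%) had a peak inside or within 100 kb and 24 (32.4%) inside or within 25 kb, against 55.2% and 29.7% over the whole set of protein-coding genes. Inside the gene the count was 11 (14.9%), against 13.4%. From each role the genes with most peaks are named, so high counts among them follow from the choice. Of all protein-coding genes, 3.80% had 6 or more peaks inside or within 100 kb.

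Among ligands, 13 of 26 had a peak within 100 kb and 6 within 25 kb. Mst1, Fgf22, Fgf15 and Fgf17 had 3 each, and of these Mst1 and Fgf15 were the nearest gene of 1 peak each. For the ligands that skin fibroblasts make, picked out after their values were seen, the nearest peak lay 295.1 kb from Fgf7, 464.0 kb from Fgf10 and 95.5 kb from Hgf. Hgf is thus among the 13 with a peak within 100 kb, and Fgf7 and Fgf10 had none, as did 44.8% of all protein-coding genes. Of 13 genes for proteins that activate or bind ligands, 9 had a peak. Igfbp2 had 8 and was the nearest gene of 5. Igfbp5 had 6, and its window overlaps that of Igfbp2, so that the same 212 bp peak was the nearest to both. Fgfbp1, whose product releases stored FGF, had 6 and was the nearest gene of 5, the closest being 3.22 kb downstream. Hgfac, which encodes an activator of HGF, had 8 but was the nearest gene of none.

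Among related receptors 2 of 5 had a peak, Igf2r with 2 and Fgfrl1 with 1. Insr and Kl had none, and their nearest peaks lay 128.8 and 209.4 kb away. Among adaptors, which couple receptors to RAS, 8 of 12 had a peak. Cbl, a ubiquitin ligase that removes receptors from the surface, had 5, of which 2 were internal, and Gab1, a docking protein of MET, had 4, of which 3 were internal. Grb2 had 3 and Irs2 had 2. In the kinase cascade 6 of 9 had a peak. Map2k2 had 7, Hras 5, Nras 4 and Braf 3, and Map2k2 and Hras were each the nearest gene of 1 peak.

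Inhibitors of the cascade other than the Sprouty genes had a peak in 3 of 5 cases. Spred2, a relative of the Sprouty genes, had 9 within 100 kb, 2 of them internal, and was the nearest gene of 11 at any distance. Dusp6, which encodes the phosphatase that switches off ERK, had 4, and a 269 bp peak at chr10:99262971-99263239 overlapped its promoter window with its midpoint 0.126 kb upstream of the gene. Spred3 had 1, at 87.1 kb and nearest to Spint2, and Spred1 had none. Of 4 transcription factor genes that respond to the cascade, Etv4 had 3 peaks, Egr1 had 2 and Etv5 had 1, while Etv1 had none. The nearest was 1.53 kb from Etv4.

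**Figure D5:**
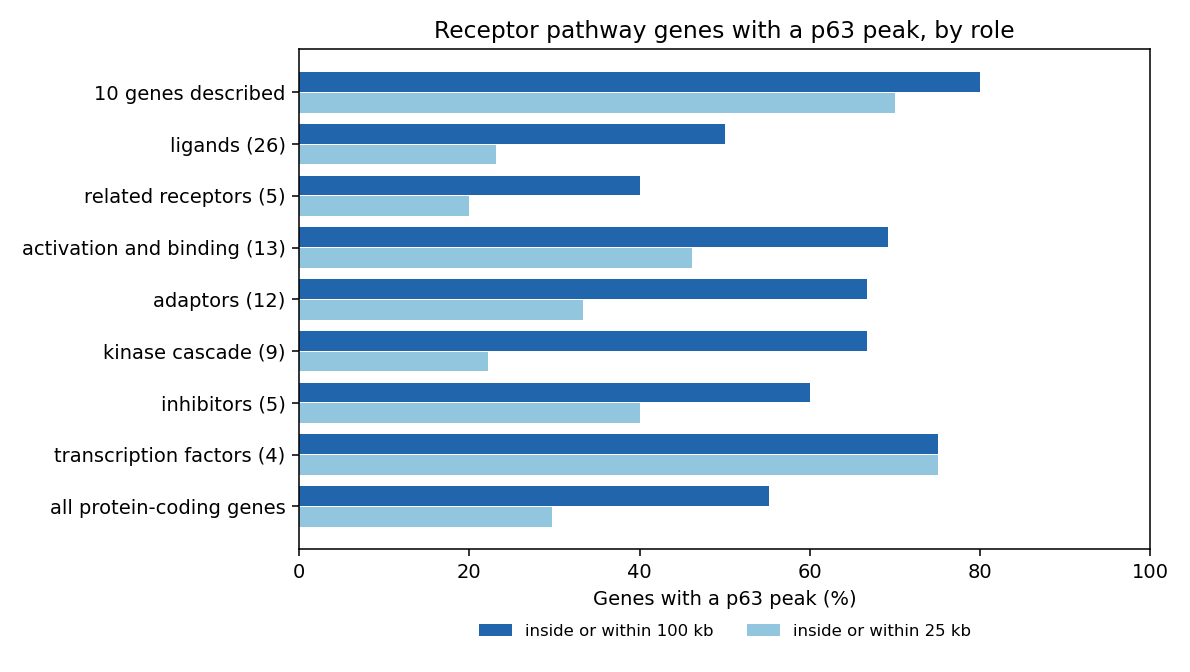
Share of genes with a p63 peak (horizontal axis, percent) inside or within 100 kb (dark bars) and inside or within 25 kb (light bars), for the 10 genes described, for 7 roles of other pathway genes with their number of genes in brackets, and for all protein-coding genes. Bars of roles with 4 or 5 genes move by 25 or 20 points with a single gene. The ligands stand at 50.0% and 23.1% and all protein-coding genes at 55.2% and 29.7%.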

How the data were processed

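p63 was precipitated with the 4A4 antibody from MK1 and MK2 cells, and 50 bp single-end reads were taken, per the labels' protocols. Bowtie 1.1.1, SAMtools 1.1 and mm10 are named in the submitters' processing notes. The authors ran IDR, which keeps peaks ranked alike in replicates, on both p63 libraries, per the labels; the deposited list holds peak positions in bp and no other measure. The peak caller was not given in the sources used here, nor were its thresholds. Starts were made 1-based. Genes and promoter windows came from RefSeq tables of GRCm38.p6, whose chromosome coordinates are those of mm10; 340 gene rows ending below 3 Mb, which are scaffold positions, were left out, leaving 21779 protein-coding genes. Distances run from peak midpoints to gene ends. A peak inside a gene has that gene as nearest. The counting was checked on simulated peaks (Python 3.11.15, pandas 2.3.3). The genes and lists were chosen with earlier results of these data known. The planned motif search under peaks was not run, as no genome was used here; promoter windows took its place, chosen after the data were seen. Up to 4 genes per role with most peaks were named, ties by the nearest peak.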

Additional observations from a re-analysis of the deposited data

How the results depend on the processing

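The 25 peaks at the 10 genes became 17 with a window of 25 kb, 19 with 50 kb and 42 with 200 kb. They stayed 25 when distance was taken from the peak edge and became 16 when only peaks of at least the median width were kept. Counted from listed starts, an alternative added after the data were seen, they were 19 of the 23 peaks at genes with a listed start. The 2 Fgfr1 peaks could not be counted in that way. Genes with a peak were 7, 8 and 10 of 10 with these windows and 6 with wide peaks. Pathway genes with a peak were 24 with a window of 25 kb, against 44 with 100 kb; the wider and narrower windows change these counts by construction. Peaks with the gene itself as nearest were 18 by either definition of distance and 13 when non-coding genes were included. Groups of peaks were 22 when joined at 5 kb and 18 at 25 kb. Among genes of like length, averaged over the 10, 59.46% had a peak within 100 kb. A stricter peak threshold could not be set, because the list has no score. No paired analysis was possible because the MK1 and MK2 libraries enter 1 joint list. Sites missed at the unknown depth would not appear in any of these counts.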
